A study of Mus musculus with 2 samples.

Results

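Most of the 40 genes described here make, organise or remodel the matrix of tendon and of the connective tissue around muscle fibres, the collagens themselves left aside. The set also holds regulators of tendon cells and Gsn, an actin-binding gene that gave most of its reads. The 40 were chosen by name from their known roles, although earlier results of these data were known by then. Their reads were summed per gene from the deposited transcript tables. All 40 carried a read, among 15371 annotated genes that did, and 36 of them reached the 10 reads, summed over both libraries, that were required for a test. The tissue was gastrocnemius, a large calf muscle, from female B6CASTF1/J mice aged 2 months, for which the labels name no treatment. B6CASTF1/J is a hybrid strain, written B6Cast F1 in the sample descriptions. Replicate 1 is the library of animal 03 and replicate 2 that of animal 04, and 2 µg of RNA went into each. Both libraries carry the same donor identifier in the labels, so that the libraries come from 2 animals is known only from those numbers.

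Tendon and the sheaths of muscle carry force along collagen fibrils. Small leucine-rich proteoglycans coat those fibrils, elastic fibres give recoil, and matricellular proteins act on cells without bearing load. Chaperones and hydroxylases prepare procollagen inside the cell, and proteases and their inhibitors set its turnover outside. Most of these genes are expressed mainly by fibroblasts and tendon cells rather than by the muscle fibre. In bulk tissue, fewer cells of a type cannot be told apart from less RNA per cell.

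The libraries held 1349298 and 1359923 long reads, given as counts per transcript model, a model being an exon structure to which reads were assigned. A read stands for a molecule, so levels are counts per 1e+06 reads of the library (CPM), with no division by transcript length. A single read was worth 0.741 CPM in replicate 1 and 0.735 CPM in replicate 2. All 10 skeletal muscle markers had reads, summing to 300227 and 295947 CPM. All 8 tendon cell markers had reads, summing to 365 CPM and 591 CPM, or 200 CPM and 246 CPM without Fmod, while 4 of 7 cartilage or bone markers (Acan, Matn1, Ibsp and Bglap) were at 0 in both libraries. Of the tendon markers 7 are genes of the set, and the other, Tppp3, had 34 and 15 reads (ratio 0.438, 0.241 to 0.796, adjusted p = 0.0721 by Fisher's exact test). Markers of other cells were compared by the gene-level test described below, which 7.82% of all genes passed, as did all 10 skeletal muscle markers. Of the adipocyte markers 8 of 10 were lower in replicate 2 and 1 was higher. Of the 8 Schwann cell and nerve markers tested 6 were lower, their list summing to 694 CPM in replicate 1 and 100 CPM in replicate 2. Of the 9 smooth muscle and pericyte markers 5 were lower, of the 10 endothelial markers 3, and of the 7 macrophage markers tested 1. All 9 slow fibre markers were higher, summing to 1355 CPM and 9212 CPM. The fibroblast list, with 1 higher and 2 lower of 10, summed to 1666 CPM and 1560 CPM. The part of these differences in the results below was not tested. Models on the strand opposite to the members held 10 and 16 reads in all and were not counted.

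Members took 11431 reads of the first library and 8555 of the second, or 0.847% and 0.629%. Gsn alone supplied 69.8% and 59.2% of them. The summed level was 8472 CPM in replicate 1 and 6291 CPM in replicate 2 (mean 7381 ± 1542, SD, n = 2). Without Gsn the other 39 genes summed to 2555 CPM and 2568 CPM (2561 ± 9.28, SD, n = 2). The lower total of replicate 2 was therefore the Gsn count, while the rest of the set summed to nearly the same level in both libraries.

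Gene by gene, 12 of the 36 tested members differed between the libraries. The criterion was a Benjamini-Hochberg adjusted p under 0.05, over all 9341 genes tested, from Fisher's exact test on a gene's reads and the rest of the library. Over all those genes the share was 7.82%. Fmod, Chad, Kera, Cilp2, Tnc and Serpinh1 were higher in replicate 2, against 4.25% of all genes, and Gsn, Sparc, P4hb, Timp2, Bgn and Eln were lower, against 3.56%. The remaining 24 did not pass. Postn, Mfap2, Tnxb and Mkx had too few reads for a test, with 7 and 2, 4 and 3, 1 and 2, and 1 and 2 reads. The median log2 ratio of the 36, at CPM + 1 and as replicate 2 over replicate 1, was -0.07, beside -0.01 over all genes tested. These tests set 1 library against the other and have no replicate check: with 2 animals a two-sided sign test cannot give a p below 0.5. With an assumed dispersion of 0.01 between animals, edgeR's exact test called 2 members, Fmod and Eln, and 1.85% of all genes. With 0.04 it called 0 members, 5 having an unadjusted p under 0.05, and 0.535% of all genes. With reads of annotated transcripts alone, Fisher's exact test called 6 members and 6.49% of all genes, and no longer called Bgn, Cilp2, Eln, Kera, P4hb and Serpinh1, and Tnc had no such reads to test. The ratios there were 0.590 for Bgn, 2.07 for Cilp2, 3.44 for Kera, 0.815 for P4hb and 1.34 for Serpinh1, close to those with all reads, whereas that of Eln went from 0.203 to 0.590.

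**Figure D1:**
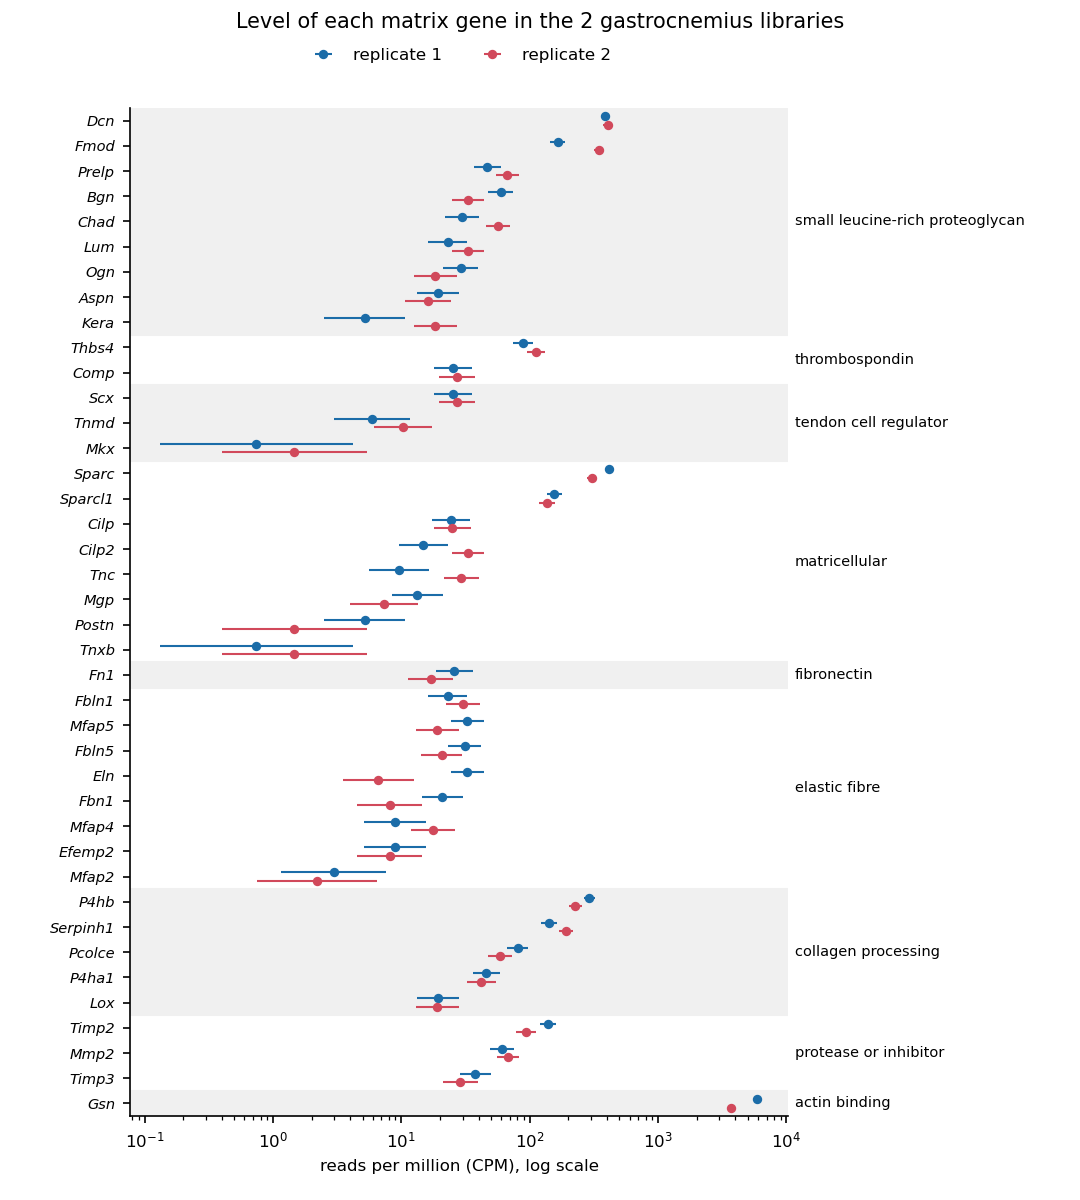
CPM of the 40 members in replicate 1 and replicate 2 on a log axis, grouped by role, with bars for the 95% Wilson interval, which covers counting error only. Gsn stands at 5917 and 3723 CPM, and no other member is above 417 CPM in either library.

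Gsn, gelsolin, severs and caps actin filaments. It makes a cytosolic protein and a secreted one that circulates in plasma, from separate promoters and first exons. The secreted form begins within its own first exon and carries a signal peptide, and the cytosolic form begins in the next, shared exon. The starts of both reading frames are shown because they separate the forms, with the start codon in capitals. Both are from the GENCODE M21 transcripts (mm10, plus strand), the first at chr2:35282464-35282601 in Gsn-201 and the second at chr2:35283905-35283964 in Gsn-205, 5′ to 3′.
Gsn secreted start: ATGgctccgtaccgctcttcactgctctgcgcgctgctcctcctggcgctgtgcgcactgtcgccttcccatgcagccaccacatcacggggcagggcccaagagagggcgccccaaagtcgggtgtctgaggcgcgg
Gsn cytosolic start: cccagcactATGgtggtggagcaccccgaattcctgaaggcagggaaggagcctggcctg

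Gsn (2:35256380-35307892) had 7984 reads in replicate 1 and 5063 in replicate 2, or 5917 CPM (5789 to 6048) and 3723 CPM (3622 to 3827). Replicate 1 was the higher library, and the intervals did not overlap. The ratio of replicate 2 to replicate 1 was 0.629 (0.607 to 0.652, adjusted p = 3.49e-148 by Fisher's exact test). The call was lost when a dispersion of 0.01 was assumed (adjusted p = 0.0611, edgeR's exact test).

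Nearly every Gsn read that showed its start was of the secreted form. Of the reads spliced from either first exon, 7732 of 7765 were secreted in replicate 1 and 4937 of 4950 in replicate 2. These shares were 99.6% (99.4 to 99.7) and 99.7% (99.6 to 99.8), a mean of 99.7% ± 0.115 (SD, n = 2). Their difference of 0.162 percentage points did not pass Fisher's exact test (two-sided p = 0.172). The cytosolic start was seen in 33 and 13 reads, or 24.5 CPM and 9.56 CPM. A further 219 reads (2.74%) in replicate 1 and 113 (2.23%) in replicate 2 showed neither start. Reads from any other Gsn start would be among them. The 17-exon transcript Gsn-201, with a coding length of 2340 bases, held 7627 and 4874 reads by itself, and the 18-exon cytosolic Gsn-205 held 29 and 10. Both forms therefore had fewer reads in replicate 2, and the lower Gsn count was a lower count of the secreted transcript.

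The 250 bases before the RefSeq start of each form were read from the RefSeq promoter table (GRCm38.p6, plus strand), in which a further start is not shown. The secreted window ends where Gsn-201 begins, at 35282380, and the cytosolic window ends short of the GENCODE start of Gsn-205, at 35256380. Capitals mark the letters CANNTG, the E-box consensus, searched on both strands at once because the motif reads the same on each.
Gsn secreted promoter, chr2:35282130-35282379: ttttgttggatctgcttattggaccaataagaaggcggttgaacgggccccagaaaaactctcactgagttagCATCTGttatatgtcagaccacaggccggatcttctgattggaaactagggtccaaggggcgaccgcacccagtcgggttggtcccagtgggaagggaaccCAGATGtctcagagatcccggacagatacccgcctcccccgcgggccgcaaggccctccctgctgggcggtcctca
Gsn cytosolic promoter, chr2:35256109-35256358: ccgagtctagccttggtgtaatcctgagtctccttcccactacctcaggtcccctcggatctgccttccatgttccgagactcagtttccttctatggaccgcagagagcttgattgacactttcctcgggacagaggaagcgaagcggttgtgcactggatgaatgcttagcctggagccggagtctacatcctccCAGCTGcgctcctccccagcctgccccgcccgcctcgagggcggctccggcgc

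CANNTG occurred 2 times before the secreted start and 1 time before the cytosolic start. It occurred at least once in 66.2% of 32851 RefSeq windows of the same length, with a median of 1, and at least 2 times in 31.8%. The share of windows with these letters is a description of sequence and shows no binding.

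Among the 9 small leucine-rich proteoglycans, 3 were higher in replicate 2 and 1 was lower, the rest not passing. Together they had 1034 reads in replicate 1 and 1352 in replicate 2, or 766 CPM and 994 CPM. Most of that difference was in Fmod, which held 223 and 470 of these reads. Dcn, decorin, which binds collagen fibrils and limits their fusion, had 525 and 552 reads, or 389 CPM and 406 CPM. Its level was nearly equal in both libraries (397 ± 11.9 CPM, SD, n = 2), with a ratio of 1.04 (0.926 to 1.18) and an adjusted p of 0.842 by Fisher's exact test. Fmod, fibromodulin, a proteoglycan of tendon that regulates fibril maturation, had 223 and 470 reads. The level was 165 CPM in replicate 1 against 346 CPM in replicate 2, with intervals that did not overlap. The ratio was 2.09 (1.78 to 2.45, adjusted p = 1.13e-18 by Fisher's exact test). Fmod was also among the members called with an assumed dispersion of 0.01 (adjusted p = 0.000962, edgeR's exact test).

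Chad, chondroadherin, a collagen- and integrin-binding protein of cartilage and tendon, had 40 reads in replicate 1 and 77 in replicate 2. It was higher in replicate 2 by 1.91-fold (1.31 to 2.79, adjusted p = 0.0151 by Fisher's exact test). Kera, keratocan, best known from the cornea and also present in tendon, had 7 and 25 reads. Its ratio of 3.54 passed narrowly and has a wide interval (1.57 to 8.01, adjusted p = 0.0319 by Fisher's exact test). Bgn, biglycan, the closest relative of decorin, went the other way, with 80 reads in replicate 1 and 45 in replicate 2. Its ratio was 0.558 (0.388 to 0.803, adjusted p = 0.0268 by Fisher's exact test). The ratio intervals of decorin and biglycan did not overlap.

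Prelp, which links basement membranes to connective tissue, had 63 and 91 reads, and its ratio of 1.43 (1.04 to 1.97) did not pass (adjusted p = 0.202 by Fisher's exact test). It passed when annotated transcripts alone were counted. Lum, lumican, had 31 and 45 reads, Ogn, osteoglycin, 39 and 25, and Aspn, asporin, 26 and 22. All 3 had intervals of the ratio that held 1.

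Several of these genes are neighbours in the genome. On chromosome 10 Dcn, Lum and Kera follow each other on the plus strand with gaps of 47.0 and 34.2 kb and no other coding gene between. Their ratios were 1.04, 1.44 and 3.54 in that order. On chromosome 1 Prelp (minus strand) and Fmod (plus strand) lie 116 kb apart and had ratios of 1.43 and 2.09. On chromosome 13 Aspn and Ogn lie on either side of Omd, which had 2 and 2 reads, and their ratios were 0.840 and 0.636.

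Dcn transcripts began at either of 2 untranslated first exons that share the rest of the message. The outer exon, of Dcn-201, ending at chromosome 10 position 97479789, was used by 392 of 506 reads in replicate 1 and, in replicate 2, 439 of 539. The inner exon, of Dcn-202, was used by the other 114 and 100. The outer share was 77.5% (73.6 to 80.9) and 81.4% (77.9 to 84.5), and the intervals overlapped. Fmod had a lone annotated first exon, yet 14.5% of its spliced reads in each library began within exon 2, 31 of 214 and 64 of 442. Ogn reads began within exon 2 in 15 of 37 and 17 of 25 cases, or 40.5% (26.3 to 56.5) and 68.0% (48.4 to 82.8). In Fmod and Ogn the start codon lies in exon 2, so it is not known from these reads whether such molecules held the whole frame.

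Comp and Thbs4 are thrombospondins of tendon and cartilage, pentamers that help assemble collagen fibrils. Thbs4 had 119 reads in replicate 1 and 152 in replicate 2, or 88.2 CPM and 112 CPM, and Comp had 34 and 37, or 25.2 CPM and 27.2 CPM. Replicate 2 was higher for both, and neither difference passed (adjusted p = 0.306 and 0.981 by Fisher's exact test). Of the tendon cell regulators, Scx, scleraxis, the transcription factor that marks the tendon lineage, had 34 reads in replicate 1 and 37 in replicate 2. Its ratio was 1.08 (0.681 to 1.71). Tnmd, tenomodulin, a membrane protein of mature tendon cells and a target of scleraxis, had 8 and 14 reads, with a ratio of 1.74 (0.747 to 4.04). Mkx, mohawk, a homeobox factor of tendon, had 1 and 2 reads. All 3 regulators were nominally higher in replicate 2 and none passed, 0 of the 2 tested also having an unadjusted p under 0.05 and 0 being called by edgeR's exact test. In the tendon cell list, Fmod and Chad were thus higher in replicate 2 beside a scleraxis count that differed by 3 reads and a Tppp3 ratio below 1 that did not pass.

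**Figure D2:**
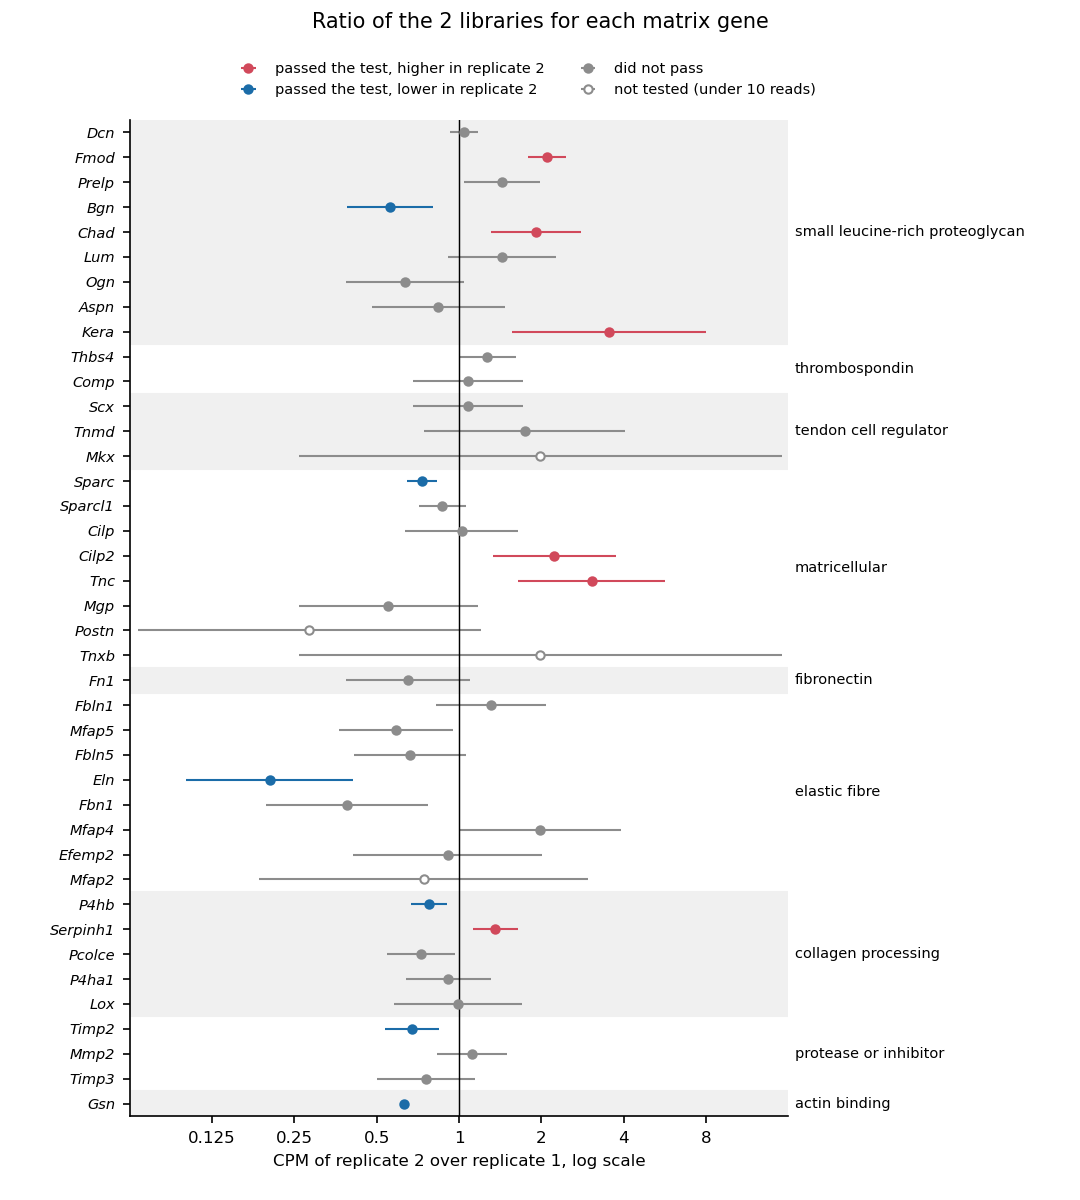
Ratio of CPM in replicate 2 to replicate 1 for each member on a log axis, with the 95% interval from the split of the reads. Red and blue points passed Fisher's exact test (6 higher and 6 lower), grey points did not (24), and open points were not tested (4).

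Of the 8 matricellular genes 6 were tested, with 2 higher and 1 lower in replicate 2. Sparc, osteonectin, a collagen-binding glycoprotein needed for fibril assembly, had 562 reads in replicate 1 and 416 in replicate 2, or 417 CPM and 306 CPM. It was lower in replicate 2, with a ratio of 0.734 (0.647 to 0.834, adjusted p = 7.56e-05 by Fisher's exact test). The ratio varied by kind of model. Annotated coding transcripts held 312 and 168 reads, a ratio of 0.534 (0.443 to 0.644). Annotated models classed as retained introns, which lie within the gene and lack its start, held 108 and 124, a ratio of 1.14 (0.881 to 1.47). These intervals did not overlap, while unannotated spliced models, with 106 and 89 reads, had a ratio of 0.833 (0.629 to 1.10). Spliced Sparc reads began at an annotated first exon in 59.9% of cases in replicate 1 (55.6 to 64.0) and 45.7% in replicate 2 (40.7 to 50.7). The gene-level ratio of Sparc therefore pools kinds of model with unequal ratios. This split was made after the values were seen and was not tested.

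Sparcl1, hevin, a relative of Sparc found around vessels and in neural tissue, had 210 and 184 reads, with a ratio of 0.869 (0.713 to 1.06, adjusted p = 0.537 by Fisher's exact test). Tnc, tenascin C, a hexameric glycoprotein of tendon and of the muscle-tendon junction that is induced by load, had 13 reads in replicate 1 and 40 in replicate 2. It was higher in replicate 2 by 3.05-fold (1.65 to 5.65, adjusted p = 0.00624 by Fisher's exact test). Cilp2, a relative of the cartilage intermediate layer protein Cilp, had 20 and 45 reads and was higher by 2.23-fold (1.33 to 3.76, adjusted p = 0.0371 by Fisher's exact test). Cilp itself, which binds growth factors of the TGF-beta family, had 33 and 34 reads, a ratio of 1.02 (0.636 to 1.64). Mgp, matrix Gla protein, an inhibitor of calcification, had 18 and 10 reads, and Postn, periostin, and Tnxb, tenascin X, which both bind collagen, had under 10 reads summed.

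Tenascin C varies in length through fibronectin type III repeats that splicing can leave out. GENCODE M21 lists 6 neighbouring exons of 273 bases, each coding for such a repeat, and its 3 long Tnc transcripts hold at least 5 of them. In these libraries 11 of 12 spanning reads in replicate 1 and, in replicate 2, 32 of 40 held none of the 6, or 91.7% (64.6 to 98.5) and 80.0% (65.2 to 89.5). A further 1 and 7 reads held 1 repeat, and 1 read in replicate 2 held 3. No read held 5 or 6, so none matched an annotated transcript. The leading model had 21 exons and 5735 bases and carried 10 and 29 reads. The repeat kept most often, in 1 of 12 and 6 of 40 reads, was the last of the 6, and is printed for that reason. It lies at chr4:63982651-63982923 (mm10, minus strand, from GENCODE Tnc-203).
Tnc repeat nearest the 3' end: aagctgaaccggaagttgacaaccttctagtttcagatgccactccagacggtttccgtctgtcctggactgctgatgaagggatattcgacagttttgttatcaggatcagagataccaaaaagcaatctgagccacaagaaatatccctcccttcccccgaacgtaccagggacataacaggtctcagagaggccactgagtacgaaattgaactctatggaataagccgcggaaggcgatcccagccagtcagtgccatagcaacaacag

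Fn1, fibronectin, joins cells to collagen through integrins. Its EDB and EDA exons each add a type III repeat and are left out of the plasma form made by liver, and the variable region, a single exon with inner acceptor sites, can be held whole (V120), in part (V95) or not at all (V0). Fn1 (chromosome 1, minus strand) had 35 reads in replicate 1 and 23 in replicate 2, or 25.9 CPM and 16.9 CPM, a ratio of 0.652 (0.388 to 1.10, adjusted p = 0.440 by Fisher's exact test). Few reads spanned each site, so shares carry wide intervals. EDB, at 1:71613763-71614035, was present in 4 of 24 reads in replicate 1 and, in replicate 2, 1 of 17, or 16.7% (6.68 to 35.9) and 5.88% (1.05 to 26.98). EDA, at 1:71603660-71603929, was present in 0 of 25 reads, which allows a share of up to 12%, and in 2 of 20, or 10% (2.79 to 30.1). Most Fn1 molecules that showed these sites thus lacked both extra repeats.

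The variable region was held at least in part by 28 of 32 reads in replicate 1 and, in replicate 2, 19 of 21, or 87.5% (71.9 to 95.0) and 90.5% (71.1 to 97.3). V120 was seen in 21 and 14 reads, V95 in 7 and 5, and V0 in 4 and 2. The V120 share was 65.6% in replicate 1 and 66.7% in replicate 2. In 41 reads all 3 sites were covered by the same molecule, 24 in replicate 1 and 17 in replicate 2. Of these, 22 lacked EDB and EDA and held V120, 9 lacked both and held V95, and 4 lacked both and had V0. All 5 reads with EDB held V120, and of the pair of reads with EDA 1 held V120 and 1 held V95. The 75 bases held by V120 and not by V95 are printed because they carry the integrin-binding LDV tripeptide, whose codons are in capitals (chr1:71597673-71597747, mm10, minus strand, from GENCODE M21).
Fn1 segment held by V120 alone: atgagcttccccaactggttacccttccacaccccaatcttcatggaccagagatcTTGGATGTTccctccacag

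**Figure D3:**
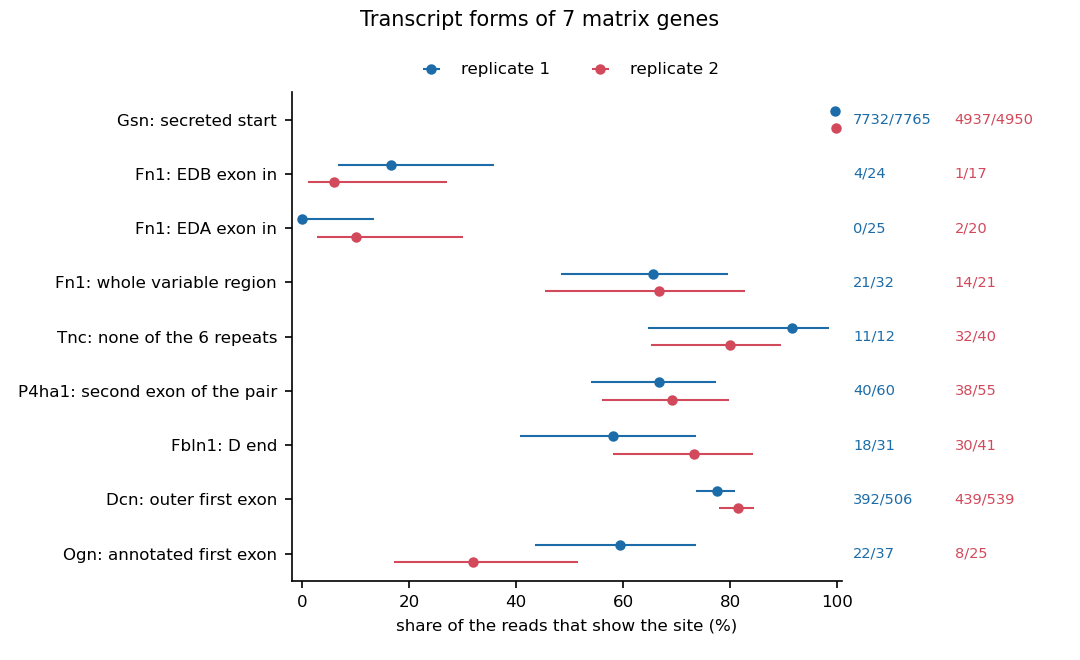
Share of reads with the named start, exon or end in each library for 7 members, among reads that show the site, with 95% Wilson intervals and the read counts at the right. Gsn is at 99.6% and 99.7% secreted, Fn1 is mostly without EDB and EDA, and the intervals of the libraries overlap in every row.

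Elastic fibres have a core of elastin on a scaffold of fibrillin microfibrils, with fibulins and microfibril-associated proteins that guide assembly. Of these 8 genes 7 were tested and 1 was lower, the others not passing. Together they had 217 reads in replicate 1 and 153 in replicate 2. Eln, elastin, had 44 and 9 reads, or 32.6 CPM and 6.62 CPM. It was lower in replicate 2, with a ratio of 0.203 (0.101 to 0.410, adjusted p = 3.09e-05 by Fisher's exact test), and was called with an assumed dispersion of 0.01 (adjusted p = 0.00161, edgeR's exact test). Its reads also differed in kind. The annotated 37-exon coding transcript held 14 and 8 reads, a ratio of 0.567 (0.244 to 1.32), unannotated spliced models held 20 and 0, and single-exon models 10 and 1. When annotated transcripts alone were counted the adjusted p was 0.697, so the Eln call rested on the unannotated models of replicate 1. Smooth muscle and pericyte markers, whose cells also make elastin, summed to 442 CPM and 332 CPM without Des, which muscle fibres express. Among them Acta2 had 92 and 38 reads, Myl9 88 and 26, Tagln 54 and 24, and Cnn1 33 and 3, with ratios of 0.410, 0.293, 0.441 and 0.0902. Those named all had fewer reads in replicate 2. The rest of the list without Des (Myh11, Rgs5, Notch3 and Pdgfrb) together had more, so the list did not fall as a whole. Of the whole list of 9, 6 had fewer CPM in replicate 2, with 5 passing Fisher's exact test, against 3.56% of all genes. The other 3 had more CPM in replicate 2, and 0 markers passed as higher. The part of these markers in the Eln difference was not tested.

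Fbn1, fibrillin, had 28 and 11 reads, a ratio of 0.390 (0.197 to 0.772) that did not pass over all genes (adjusted p = 0.0709 by Fisher's exact test). Mfap5, a microfibril glycoprotein, had 44 and 26 reads, with a ratio of 0.586 (0.363 to 0.948) that did not pass (adjusted p = 0.210 by Fisher's exact test). Fbln5, a fibulin that tethers elastin to cells, had 42 and 28 reads, and Efemp2, another fibulin, needed for elastin cross-linking, had 12 and 11. Mfap4 and Fbln1 had more reads in replicate 2, with 12 and 24 and with 31 and 41. Fbln1 makes variants with different carboxyl ends. The D end was used by 18 of 31 reads in replicate 1 and, in replicate 2, 30 of 41, or 58.1% (40.8 to 73.6) and 73.2% (58.1 to 84.3), and the C end by the remaining 13 and 11. Both ends were thus in use in both libraries, and their intervals overlapped.

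Of the 5 collagen processing genes 1 was higher and 1 lower. P4hb, the protein disulfide isomerase that is also the beta subunit of prolyl 4-hydroxylase, had 394 reads in replicate 1 and 308 in replicate 2, or 292 CPM and 226 CPM. Its ratio was 0.776 (0.668 to 0.900, adjusted p = 0.0160 by Fisher's exact test). Serpinh1, HSP47, the chaperone specific to procollagen, had 190 and 260 reads, or 141 CPM and 191 CPM. It was higher in replicate 2 by 1.36-fold (1.13 to 1.64, adjusted p = 0.0227 by Fisher's exact test). P4hb serves other proteins as well as collagen. The 2 genes differed in opposite directions, for which no reason was tested. Neither call held with annotated transcripts alone (adjusted p = 0.101 and 0.0614 by Fisher's exact test), at ratios of 0.815 and 1.34. Both were also lost with an assumed dispersion of 0.01 (adjusted p = 0.71 and 0.629, edgeR's exact test). Pcolce, which speeds removal of the procollagen C-propeptide, had 109 and 80 reads, with a ratio of 0.728 (0.546 to 0.971) that did not pass (adjusted p = 0.223 by Fisher's exact test). Lox, lysyl oxidase, the enzyme that starts collagen and elastin cross-links, had 26 and 26.

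P4ha1, the catalytic alpha subunit of prolyl 4-hydroxylase, had 62 reads in replicate 1 and 57 in replicate 2, or 45.9 CPM and 41.9 CPM, with a ratio of 0.912 (0.638 to 1.30) that did not pass (adjusted p = 0.913 by Fisher's exact test). It carries a pair of 71-base coding exons of which a transcript holds either. Both are printed from GENCODE M21 (mm10, plus strand), the first at chr10:59354340-59354410 and the second at chr10:59355350-59355420, with capitals at the positions where they differ.
P4ha1 first alternative exon: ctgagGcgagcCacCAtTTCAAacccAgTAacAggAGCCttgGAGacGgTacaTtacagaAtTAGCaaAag
P4ha1 second alternative exon: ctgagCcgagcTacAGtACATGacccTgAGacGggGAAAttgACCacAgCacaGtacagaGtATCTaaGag

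The exons were identical at 42 of 71 positions, or 59.2%. The second exon was held by 40 of 60 spanning reads in replicate 1 and, in replicate 2, 38 of 55, or 66.7% (54.1 to 77.3) and 69.1% (56.0 to 79.7). The first was held by the other 20 and 17. No read held both exons and none held neither, which allows a share of up to 5% in replicate 1 and 5.45% in replicate 2 for each. Choice between the exons was thus exclusive in all 115 reads, at nearly the same balance in both animals' libraries (67.9% ± 1.71 for the second exon, SD, n = 2).

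Timp2, an inhibitor of metalloproteinases that also takes part in activating Mmp2, had 187 reads in replicate 1 and 127 in replicate 2, or 139 CPM and 93.4 CPM. It was lower in replicate 2, with a ratio of 0.674 (0.538 to 0.844, adjusted p = 0.0112 by Fisher's exact test). Mmp2, the gelatinase of fibroblasts, had 82 and 92 reads, a ratio of 1.11 (0.827 to 1.498, adjusted p = 0.842 by Fisher's exact test). Timp3, the inhibitor that binds to the matrix, had 51 and 39 reads, with a ratio of 0.759 (0.502 to 1.15). Mmp2 reads ended in the annotated last exon in 70 of 78 and 83 of 87 cases, and the remaining 8 and 4 used an annotated acceptor site inside it.

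Across the set, 8 internal exons of 6 genes were alternative, meaning present in 5% to 95% of the informative reads of both libraries together, with at least 10 such reads in each. Beside the P4ha1 pair, EDB and the Tnc repeat, these were 2 coding exons of 33 bases in Mfap5, a 38-base exon of Cilp and a 44-base exon of Serpinh1, the last 2 noncoding. The Mfap5 exons were held by 40 of 41 and 41 of 42 reads in replicate 1 and by 20 of 24 and 20 of 24 in replicate 2. The Cilp exon was held by 17 of 21 and 17 of 17 reads, and the Serpinh1 exon by 15 of 176 and 8 of 232, or 8.52% (5.23 to 13.6) and 3.45% (1.76 to 6.66). By Fisher's exact test adjusted over the 2440 alternative exons of all genes, of which 0.246% were called, 0 member exons differed between the libraries, the lowest adjusted p being 0.744. Serpinh1 alone had an unadjusted p under 0.05 (0.0314). At this depth no difference in these forms was detectable beside the differences in gene counts of Tnc and Serpinh1.

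How often reads reached the start of their transcript was compared with the muscle as a whole. Excluding Gsn, spliced member reads began at an annotated first exon in 85.9% of cases in replicate 1 (84.7 to 87.0) and 86.1% in replicate 2 (84.9 to 87.3). Over all coding genes the shares were 74.9% and 74.5%. Reads assigned to annotated transcripts made up 82.9% and 82.1% of member reads without Gsn, against 65.9% and 65.3% over all annotated genes. The set is small, so these shares lean on a few genes with many reads. Completeness varied among members, from 100% of Tnmd, Mgp and Fbln5 reads in both libraries to 45.5% and 43.5% for Fn1, 22.7% and 60.0% for Fbn1 and 71.4% and 71.1% for Thbs4. Over the 35 members with at least 20 spliced reads summed, completeness was lower with greater length of the longest annotated transcript, with a Spearman correlation of -0.37 and a Pearson correlation of -0.57, both libraries pooled. These values are across genes, which share libraries and are not independent, and carry no p. The length is that of the annotation and not of the models that held the reads. Fbn1 and Fn1, the longest of the 35, were among the least complete, whereas Fbln5, at 5829 bases, was complete. Sparc and Ogn, with transcripts of 2300 and 2566 bases, were incomplete without being long. Tnc was largely complete, with 84.6% and 92.5%. Its longest annotated transcript, of 7106 bases, had no reads, and its leading model had 5735 bases.

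**Figure D4:**
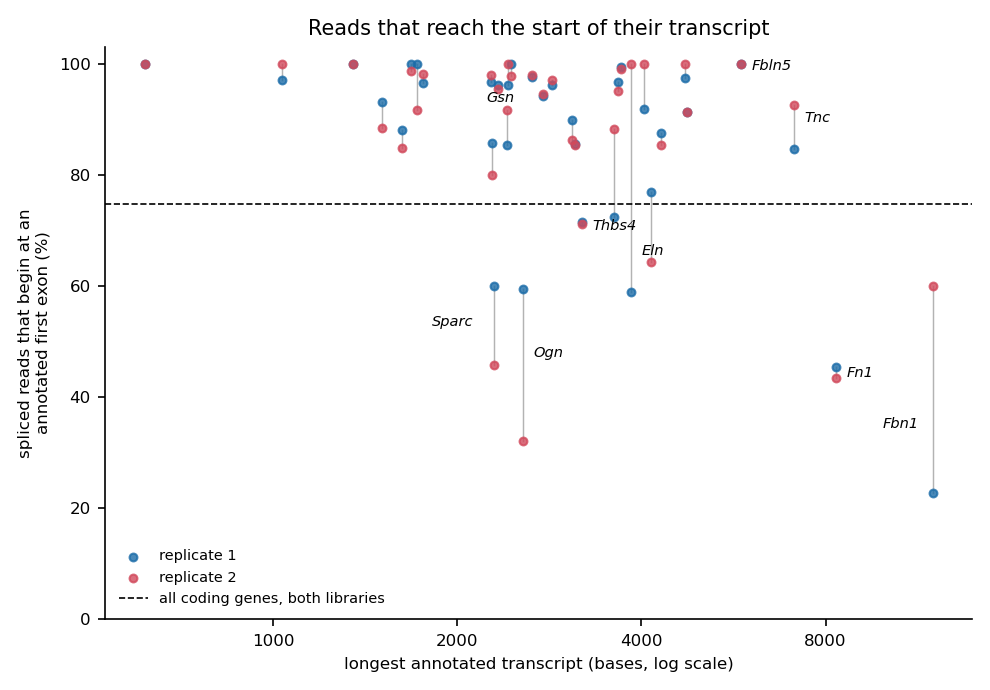
Share of spliced reads that begin at an annotated first exon against the length of the longest annotated transcript (log axis) for the 35 members with at least 20 spliced reads, each member's libraries joined by a line. Fn1 and Fbn1 lie low at great length, Sparc and Ogn lie low at moderate length, and the dashed line is all coding genes.

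Other genes of the same pathways were called at a rate near the background. Of 111 partners in 6 lists 71 were tested, of which 1 was higher and 4 lower in replicate 2, or 7.04%, beside the 7.82% of all genes. In the other matricellular list 4 of 14 were lower, among them Igfbp7, an insulin-like growth factor binding protein of vessels, with 148 and 94 reads (ratio 0.630, adjusted p = 0.0102 by Fisher's exact test). Ccn3, a relative of connective tissue growth factor, had 62 and 29 reads (ratio 0.464, adjusted p = 0.0101 by Fisher's exact test). Among the other tendon regulators 1 of 12 was called. This was Smad3, which carries TGF-beta signals to the nucleus, with 60 reads in replicate 1 and 112 in replicate 2. It was higher by 1.85-fold (1.36 to 2.53, adjusted p = 0.00249 by Fisher's exact test).

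By the same Fisher's exact test 0 of 18 collagen processing partners passed, 2 having an unadjusted p under 0.05. Colgalt1, a collagen galactosyltransferase and the partner with the most reads there, had 110 and 108. Among the 13 elastic fibre partners 0 passed and 0 had an unadjusted p under 0.05, the most reads being those of Ltbp4, a binding protein of latent TGF-beta, with 313 and 315. The same held for the 4 other proteoglycans, led by Podn, podocan, with 20 and 17 reads, and for the 10 other proteases and inhibitors, led by Serping1, the complement C1 inhibitor, with 199 and 171. By edgeR's exact test at a dispersion of 0.01, 0 partners of these 4 lists were called. The large proteoglycans Vcan and Acan had 0 reads in both libraries, below a floor of 2.22 CPM and 2.21 CPM.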

How the data were processed

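Long reads of total RNA from gastrocnemius, 1 group of 2 libraries, were available as the authors' deposited tables of counts, whole numbers of reads per transcript model with no normalization, and as deposited transcript structures. Per the deposited notes, models were on mm10 with GENCODE M21, and TALON is the source name of unannotated models. Platform, aligner, versions and read filters were not given in the sources used here. Incomplete reads from long transcripts can be assigned to shorter models, which touches the shares of starts and forms. The deposited tables also give other values, exon numbers and lengths in bases, taken as they stand.

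Gene counts are sums over models, scaled to CPM by a library total of 1349298 in replicate 1 and 1359923 in replicate 2. Genes with at least 10 reads summed were compared by two-sided Fisher's exact test (scipy 1.17.1), with Benjamini-Hochberg adjustment over 9341 genes and a threshold of 0.05. Such a test compares these libraries and covers counting error only, as do the 95% Wilson intervals; the interval of a ratio is the Wilson interval of the split of its reads. Log2 ratios used CPM + 1, computed from the deposited counts. A count of 0 was bounded by 3 counts. Exon, start and end use came from the intron chains of the models. The exact test of edgeR 4.0.16 (R 4.3.3) with assumed dispersions of 0.01 and 0.04 was an alternative, beside annotated transcripts alone, spliced models alone, other library totals and other minimums. Counting only models that begin at an annotated first exon was added after the data were seen. No replicate pairing exists within 1 group.

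The members and the lists of partners and markers were chosen with earlier results of these data known. Full values are given for the 15 members with the most reads, members called, Gsn, Fn1 and members with an alternative exon. From each partner list up to 2 called genes are named, or else the gene with the most reads. Sequences came from the GENCODE M21 transcripts and the RefSeq promoter table. Spike-in sequences, which took 3.61% and 1.48% of reads, were not tested.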

Additional observations from a re-analysis of the deposited data

How the results depend on the processing

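Counts of called members moved under 2 kinds of alternative. With annotated transcripts alone 3 members were higher and 3 lower, against 3.7% and 2.79% of all genes, 5 of the 12 calls being kept (Chad, Fmod, Gsn, Sparc and Timp2) and Prelp being added. With edgeR's exact test and an assumed dispersion of 0.01 there was 1 higher (Fmod) and 1 lower (Eln), against 0.889% and 0.963% of all genes. With 0.04 there were 0 and 0, against 0.193% and 0.343%, although 5 had an unadjusted p under 0.05. All 12 calls were kept with TMM library sizes, with median-of-ratios size factors and without mitochondrial genes and spike-ins. Of all genes 7.5% to 7.82% were called there. There were 10 kept with spliced models alone (7.3% of all genes called), 10 with no minimum of reads (3.99%), 11 with at least 50 reads (14.1%) and 8 with models that begin at an annotated first exon (6.71%), a setting added after the data were seen. No called gene changed direction under these alternatives. The median log2 ratio of the members, -0.07, was 0.03 with annotated transcripts alone, where that of all genes was 0.025. The summed level of the set was 10376 CPM with annotated transcripts alone, which have a smaller library total, and the variable region of Fn1 was held by 94.1% of reads with models of at least 2 reads, where fewer reads remain. In the same setting EDA went from a mean of 5% to 0%, with 0% in both libraries, and EDB from 11.3% to 6.67%, with 13.3% and 0%. Alternative exons numbered 5 with at least 20 reads and 5 with limits of 10% and 90%. Leaving out each library in turn gave 6291 to 8472 CPM for the set, 99.6% to 99.7% for secreted Gsn, 0% to 10% for EDA, 5.88% to 16.7% for EDB and 87.5% to 90.5% for the variable region. Reads limit most members: 28 of 40 had at least 20 reads in each library and 9 had at least 100. No paired analysis was possible because the 2 libraries form 1 group.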
